A study of Mus musculus with 2 samples.

Results

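The genes described here mark microglia, the resident macrophages of the brain, together with the macrophages of its borders and the complement proteins these cells make. They are a named set of 39 genes, chosen by symbol with earlier results of these data known, among 55536 annotated genes. They were read in total RNA from the hippocampus of female mice of strain B6CASTF1/J, an F1 hybrid of a laboratory and a wild-derived strain, at 10 days of age. Replicates 1 and 2 are 2 biological replicates of 1 group, each a pool of 3 mice, and the libraries were stranded, depleted of ribosomal RNA and made from 300 ng of RNA with ERCC spike-ins. The labels speak of a hippocampal layer that they leave unnamed, and give neither a treatment nor a mutation. No condition differs between the libraries, so the measurements are levels within the tissue and the difference of replicate 2 from replicate 1. Whole tissue was used with no sorting, so no value belongs to microglia alone.

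Microglia enter the brain from the embryonic yolk sac and depend for survival on the receptor Csf1r, which binds the ligands Csf1 and Il34. Neurons display the chemokine Cx3cl1, which microglia sense through Cx3cr1, and complement C1q and C3 can tag synapses that microglia then engulf during development. Trem2, a lipid-sensing receptor, signals through the adaptor Tyrobp, while P2ry12, Tmem119 and Sall1 are hallmarks of resting microglia.

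The RefSeq promoter table for build GRCm38.p6 (the mm10 assembly, C57BL/6J sequence, so not that of the other parent) held windows from 250 bases before to 50 bases after a start for 30 of the 39 genes. Shown here are the 250 bases before the start of a C1q chain, of Trem2 and of Spp1. Spp1 is the member with the largest log2 ratio between the libraries, on only 40 and 23 counts and not called. It has more than 1 window, and the stretches marked were found only in the window shown. Capitals mark GAGGAA, the core bound by the myeloid factor Spi1, or its longer form GAGGAAGT, and TATAAA, on either strand (TTCCTC, ACTTCCTC and TTTATA on the other strand).
C1qb, chr4:136886201-136886450, minus strand: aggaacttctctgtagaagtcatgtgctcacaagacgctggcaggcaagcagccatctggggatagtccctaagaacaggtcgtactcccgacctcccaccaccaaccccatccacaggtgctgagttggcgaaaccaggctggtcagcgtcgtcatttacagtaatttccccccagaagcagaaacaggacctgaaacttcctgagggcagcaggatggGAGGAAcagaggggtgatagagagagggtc
Trem2, chr17:48346151-48346400, plus strand: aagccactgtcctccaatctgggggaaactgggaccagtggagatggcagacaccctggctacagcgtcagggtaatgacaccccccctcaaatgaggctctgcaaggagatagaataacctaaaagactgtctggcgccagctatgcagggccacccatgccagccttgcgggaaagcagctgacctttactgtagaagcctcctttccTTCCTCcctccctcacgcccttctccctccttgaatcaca
Spp1, chr5:104434861-104435110, plus strand: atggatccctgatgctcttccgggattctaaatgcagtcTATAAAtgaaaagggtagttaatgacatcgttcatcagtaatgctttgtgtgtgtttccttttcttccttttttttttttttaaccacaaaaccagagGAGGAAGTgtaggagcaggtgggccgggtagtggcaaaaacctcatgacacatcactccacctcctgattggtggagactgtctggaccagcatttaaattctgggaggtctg
The longer form GAGGAAGT, searched on both strands, occurred in the windows of 6 of the 30 genes (C1qc, Cd53, Ctss, Pf4, Slco2b1 and Spp1), or 20%. Counted by window, it occurred in 6 of the 36 windows of these 30 genes, beside 3.20% of 32851 promoter windows of the same length. Its surroundings are shown for the other genes in which it begins before the start; that of Ctss runs across the start.
C1qc, beginning 195 bases before the start, chr4:136893093-136893118: acggcagacACTTCCTCattttggca
Pf4, beginning 10 bases before the start, chr5:90772416-90772441: ctgcagagcACTTCCTCatcctgtat
Ctss, beginning 2 bases before the start, chr3:95526775-95526800: tgaaagttcACTTCCTCattgtggat
The core GAGGAA, which every GAGGAAGT contains, occurred in 18 of the 30 genes (60%), or 21 of their 36 windows, and in 28.3% of all windows. The Ets-IRF composite element, read by Spi1 with an interferon regulatory factor, was found in Cd68 only (1 of the 36 windows), and in 2.72% of all windows. TATAAA was found in 6 of the 30 genes (20%), or 6 of their 36 windows, and in 13.6% of all windows. These are matches of letters, with no binding measured, and several genes have more than 1 window. No window was matched for Csf1r, Il34, Tyrobp, Spi1, Tmem119, Gpr34, Selplg, C1qa and Lpl.

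Of the 39 genes, 37 had a TPM of 1 or more in both libraries. TPM is transcript abundance corrected for length and scaled to a fixed total, here from the table estimated from alignments unless stated otherwise, and paired values are for replicate 1 and then replicate 2. The exceptions were Itgax and Spp1. Among 22015 nuclear protein-coding genes, 59.1% reached that level in both libraries. The median of the 39 genes was 5.46 and 5.63 (5.54 ± 0.12, SD, n = 2), above the median of all protein-coding genes (3.95 and 3.57) but below that of the 13019 detected ones (15.8 and 14.9). Only 5 of the 39 genes lay above this last median in both libraries: Cx3cl1, Lpl, Csf1r, P2ry12 and Il34. Cx3cl1, Il34 and Lpl are also made by neurons, and Cx3cl1 and Lpl alone held 44.7% and 43.6% of the summed TPM of the set (513.1 and 536.3). That sum was 0.114% and 0.120% of all protein-coding TPM. In bulk tissue, fewer cells of a type and less RNA per cell cannot be told apart.

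**Figure D1:**
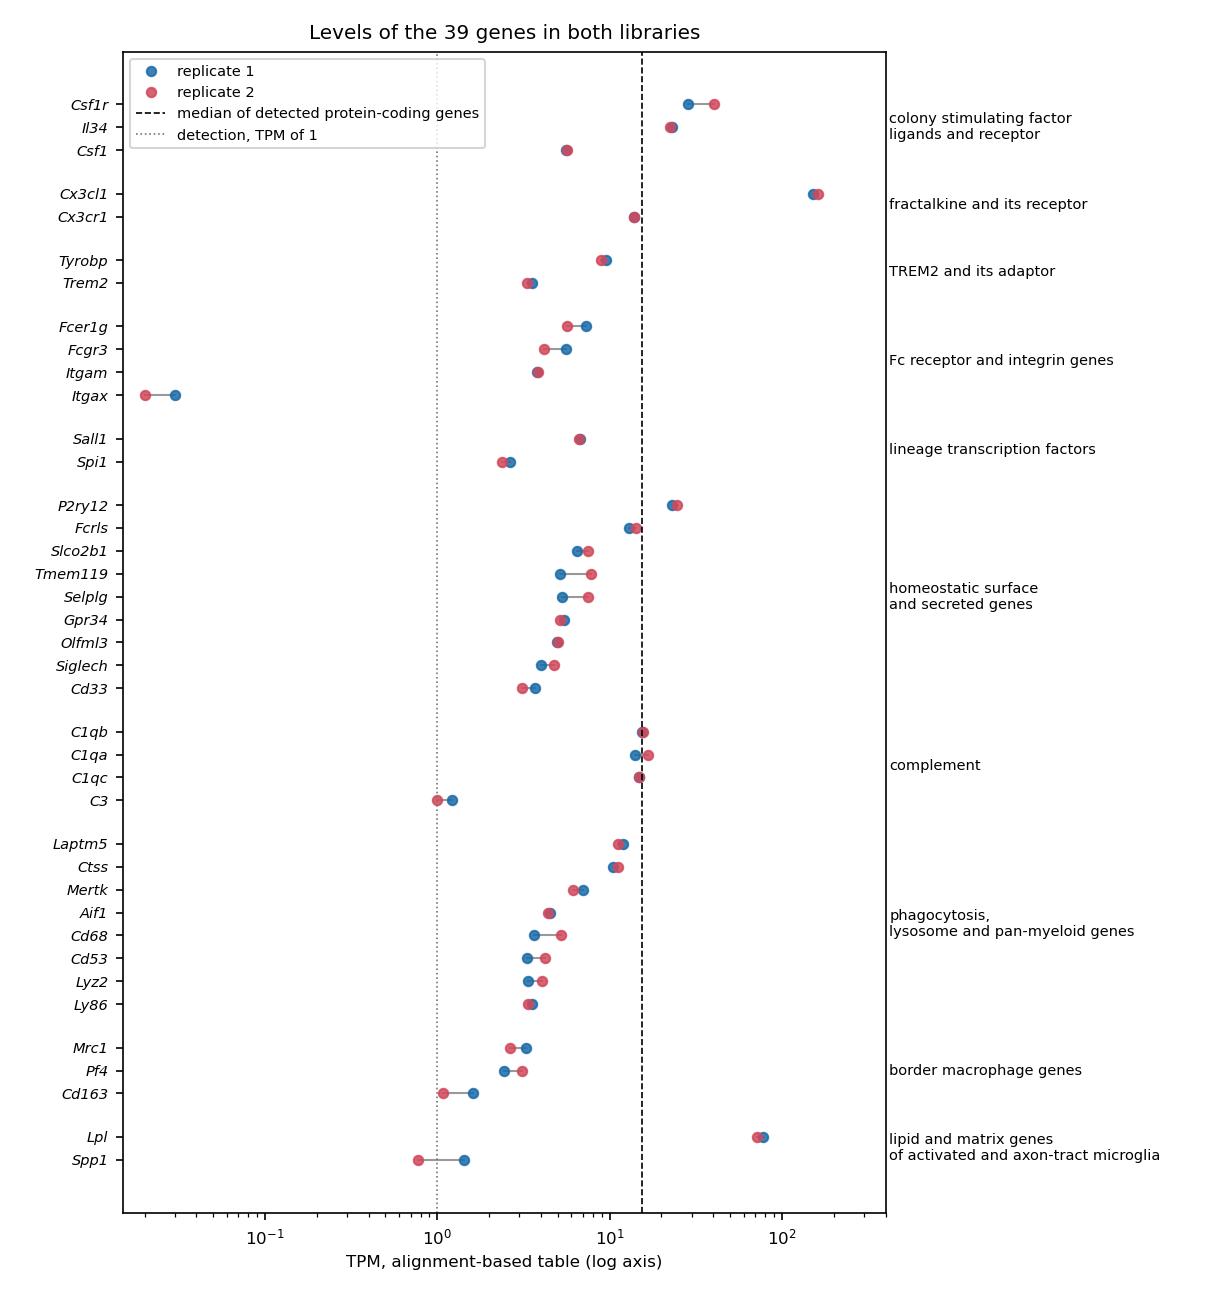
TPM of the 39 genes on a log axis, grouped by role, with a point for each of the 2 libraries and a grey line joining them. The dashed line is the mean over libraries of the median of detected protein-coding genes (15.8 and 14.9) and the dotted line the detection level of 1; Cx3cl1 stands highest, at 152.2 and 162.4, and Itgax lowest, at 0.03 and 0.02.

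Of the 38 pairs of neighbours in the order of mean TPM, 25 had library ranges that overlapped and 13 did not. Cx3cl1, Lpl and Csf1r each stood apart, followed by P2ry12 with Il34 and then by the C1q chains, of which C1qa overlapped both others. Cx3cr1 with Fcrls, Laptm5 with Ctss, and Tyrobp alone came next. Most of the other genes lay between a TPM of 2 and 8 and ran into each other.

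Among the growth factors, Il34 exceeded Csf1, and the receptor stood at or above both ligands. Il34 (chr8:110741829-110805924), a ligand known for its neuronal source in the forebrain, had a TPM of 23.14 and 22.51 on 548 and 607 expected counts. Csf1 (chr3:107741048-107760469), the ligand shared with peripheral macrophages, had 5.61 and 5.63 on 444 and 437 counts. The libraries of each ligand lay close together and far from those of the other: the log2 ratio of Il34 to Csf1, on TPM plus 0.1 within a library, was 2.00 ± 0.03 (SD, n = 2), a 4.01-fold higher level of Il34. A ratio is called here where both libraries have the same sign and the mean exceeds 2 SD, a descriptive rule, since an exact two-sided sign-flip test on 2 libraries cannot go below p = 0.5. For Il34, the processed transcript Il34-205, a non-coding form of 675 bases, took 10.08 and 8.92 of the TPM. Without it, Il34 stood at 13.06 and 13.59, still above Csf1 in both libraries. These values lay below the median of detected protein-coding genes (15.8 and 14.9), which Il34 exceeded with all its transcripts counted.

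Csf1r (chr18:61100598-61132149), the receptor tyrosine kinase of both ligands, reached a TPM of 28.45 and 40.15 on 1936 and 2445 counts. Its level was above Csf1 in both libraries (log2 ratio 2.57 ± 0.35, 5.93-fold, n = 2), while the ratio to Il34, 0.56 ± 0.38, did not exceed 2 SD. Much of the gap between the libraries in TPM came with a short transcript. Csf1r-205, of 416 bases, was given 25.4 and 92.3 counts, which at its length amounted to 3.88 and 12.84 of the TPM. Without it the gene stood at 24.56 and 27.31, so that the TPM ratio of replicate 2 to replicate 1 was 1.11 in place of 1.41. The table estimated directly from reads gave this transcript 0 and 20.01 TPM, and the gene ratio there was 1.74 with it and 1.20 without it. The transcript was left out after its values were seen. A longer form, Csf1r-202, overlaps the gene Hmgxb3 on the opposite strand over 873 bases. The sources used here do not say whether strand was used in counting, which makes its 133.7 and 228.5 counts uncertain; Hmgxb3 had a TPM of 16.39 and 16.73.

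The fractalkine pair held the highest member of the set. Cx3cl1 (chr8:94772009-94782427), the membrane-bound chemokine of neurons, had a TPM of 152.20 and 162.45, above 97.9% of protein-coding genes. Cx3cr1 (chr9:119901616-120069879), its receptor on microglia, had 13.83 and 13.94 on 1046 and 1166 counts. Ligand exceeded receptor by a log2 ratio of 3.49 ± 0.06 (n = 2), or 11.3-fold, in both libraries alike. A single coding transcript, Cx3cl1-201, carried 141.7 and 157.9 of the ligand's TPM. The read-based table also placed 59.4 and 71.8 TPM on Cx3cl1-203, a transcript annotated for nonsense-mediated decay that had 0.82 and 0 in the alignment-based table.

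The receptor Trem2 and its adaptor differed in level. Tyrobp (chr7:30413760-30417585), the adaptor that carries the activating motif for Trem2 and other receptors, had a TPM of 9.57 and 8.91 on 92 and 94 counts. Trem2 (chr17:48346401-48354147) had 3.53 and 3.30 on 106 and 95 counts. The adaptor stood 2.66-fold above the receptor (log2 ratio 1.41 ± 0.01, n = 2), on counts of about the same size, since Tyrobp is the shorter transcript. A retained-intron transcript of Trem2 took 40.4% and 28.7% of its counts, but the coding Trem2-201 led in TPM in both libraries (3.09 and 2.45). In the read-based table the retained-intron form took more, 57.9% and 48.7% of the counts, and Trem2-201 again led in TPM. Cd33, an inhibitory lectin that restrains microglial uptake, lay at the level of Trem2, with 3.68 and 3.09; their log2 ratio, 0.02 ± 0.11, did not exceed 2 SD.

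Of the signalling adaptors and surface receptors for antibody and complement fragments, Fcer1g, the common gamma chain of Fc receptors, had a TPM of 7.32 and 5.68 on 87 and 74 counts. Tyrobp, a related adaptor, was higher by a log2 ratio of 0.51 ± 0.18 (n = 2), on similarly few counts. In the read-based table the ratio was smaller, 0.18 ± 0.04. Fcgr3, a low-affinity Fc receptor, had 5.57 and 4.15. Its reads are uncertain, because the related Fcgr2b held 46.8 and 84.3 counts in the alignment-based table and 238.3 and 267.2 in the read-based table. Itgam, the CD11b chain of complement receptor 3, had 3.80 and 3.83 on 334 and 362 counts. Itgax, the CD11c chain that marks activated and axon-tract microglia, had 0.03 and 0.02, on 2.13 and 2.00 counts (exact 95% Poisson interval 0.242 to 7.22 at 2 counts, counting error only). Itgam was thus above detection in both libraries and Itgax at the limit of counting in both.

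Both lineage factors were detected. Sall1 (chr8:89027235-89044162), the zinc finger factor that maintains microglial identity, had a TPM of 6.76 and 6.68 on 722 and 782 counts, from its only annotated transcript. Spi1 (chr2:91082390-91115756), the myeloid factor whose motif is printed above, had 2.64 and 2.38 on 70 and 85 counts. Sall1 was 2.62-fold higher (log2 ratio of Spi1 to Sall1 -1.39 ± 0.09, n = 2). Neural progenitors also express Sall1 in development, and no value here separates its sources.

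All 9 homeostatic surface and secreted genes were detected in both libraries, from 3.38 to 23.8 in mean TPM. P2ry12 (chr3:59216272-59262871), the purine receptor that steers microglial processes, led with 23.07 and 24.50 on 828 and 927 counts. Tmem119 (chr5:113793729-113800516), a transmembrane protein used to tell microglia from other macrophages, had 5.13 and 7.84. P2ry12 exceeded Tmem119 by a log2 ratio of 1.89 ± 0.36 (n = 2), and the libraries differed here more than for most pairs because Tmem119 was higher in replicate 2. Fcrls, an Fc receptor-like protein of mouse microglia, followed P2ry12 with 12.97 and 14.17. The transporter Slco2b1 had 6.47 and 7.46, and the selectin ligand Selplg 5.31 and 7.47. Gpr34, a lysophospholipid receptor, had 5.46 and 5.17, and the secreted Olfml3 had 4.98 and 5.02. Siglech, a lectin of microglia and plasmacytoid dendritic cells, had 4.0 and 4.78. The annotated form behind these levels was not always coding: 82.8% and 81.8% of the Olfml3 counts lay in the retained-intron transcript Olfml3-202.

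The 3 chains of C1q, the recognition molecule of the classical complement pathway, lay between a TPM of 13.99 and 16.78 in both libraries. Their genes lie side by side on chromosome 4: C1qb at 136880129-136886187, C1qc at 136889804-136893065 and C1qa at 136895917-136898803, all on the minus strand. C1qa had a TPM of 13.99 and 16.78 on 272 and 358 counts. C1qb had 15.51 and 15.57 on 317 and 349 counts. C1qc had 14.73 and 14.80 on 335 and 368 counts. C1qa ranged across the values of the other chains, and its log2 ratios to C1qb (-0.02 ± 0.18) and C1qc (0.05 ± 0.18) did not exceed 2 SD (n = 2). C1qb was above C1qc by 1.05-fold with a small spread (log2 ratio 0.07, called), but the read-based table turned this difference round, to a log2 ratio of -0.11.

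C3 (chr17:57203970-57228136), the central component that C1q activation leads to, was low, with a TPM of 1.21 and 1.00 on 115 and 114 counts. C1qb exceeded it 13-fold (log2 ratio 3.70 ± 0.18, n = 2). The other complement genes were a list of 36, of which 16 had a TPM of 1 or more in both libraries and 4 had no count in either (Cfd, C6, C9 and the receptor Vsig4). The highest were Clu, a secreted chaperone that blocks the terminal pathway, at 253.6 and 284.6, the mitochondrial C1qbp at 46.9 and 48.4, the complement inhibitor Susd4 at 43.8 and 49.6, and Csmd1, a large membrane inhibitor, at 41.7 and 31.5. Many of these are made by neurons or astrocytes. The proteases that join C1q were low: C1ra had 0.13 and 0.38 and C1s1 0.55 and 0.73. Both were called higher in replicate 2 by the exact binomial test on counts, adjusted over all genes tested (log2 ratio of counts 1.55 ± 0.57, adjusted p = 0.0246, and 1.58 ± 0.44, adjusted p = 0.00104, counting SE). Over the 26 genes of the list tested, 8 were higher in replicate 2 and 18 in replicate 1, with a median log2 ratio of -0.19.

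The 8 phagocytic, lysosomal and pan-myeloid genes were all detected. Laptm5, a lysosomal membrane protein of blood-derived lineages, had a TPM of 12.02 and 11.20, and the cysteine protease Ctss had 10.52 and 11.24. Mertk, the receptor that takes up dying cells and synapses and is shared with astrocytes, had 7.05 and 6.10. The lysosomal glycoprotein Cd68 had 3.66 and 5.25 on 84 and 118 counts. Aif1, which encodes the common microglial stain IBA1, had 4.52 and 4.42 on only 63 and 55 counts, and the tetraspanin Cd53 had 3.30 and 4.24. Lyz2, lysozyme, had 3.34 and 4.05, and Ly86, a partner of a toll-like receptor homologue, 3.57 and 3.38. Counts of Lyz2 can be shared with its copy Lyz1, which had 0.42 and 0.50. The stain gene Aif1 was thus lower than Csf1r, P2ry12, Cx3cr1 and the C1q chains in both libraries.

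Genes of border macrophages were present at low level. Mrc1, the mannose receptor, had a TPM of 3.29 and 2.64 on 359 and 316 counts. Cd163, the haemoglobin scavenger receptor, had 1.61 and 1.08 on 129 and 98 counts, and Pf4, a chemokine also made by megakaryocytes, 2.45 and 3.09 on 22 and 27 counts. P2ry12 was 7.83-fold above Mrc1 (log2 ratio 2.97 ± 0.28, n = 2), and Mrc1 was 2.15-fold above Cd163 (1.10 ± 0.16). Of 12 further border macrophage markers, 4 reached a TPM of 1 in both libraries: Stab1 (17.7 and 11.3), Dab2 (12.4 and 10.1), Colec12 (3.72 and 3.78) and F13a1 (1.58 and 1.04). Endothelial or meningeal cells express several of these too.

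The pair of genes tied to activated and axon-tract microglia lay far apart. Lpl (chr8:68880491-68907448), lipoprotein lipase, had a TPM of 77.42 and 71.57 on 5705 and 5608 counts, and Lpl-203, annotated for nonsense-mediated decay, made up 15.1 and 17.7 of it. Spp1 (chr5:104435118-104441050), osteopontin, had 1.43 and 0.77 on 40 and 23 counts. Lpl was 64.6-fold above Spp1 (log2 ratio of Spp1 to Lpl -6.01 ± 0.50, n = 2). With Spp1 this low, the size of the fold depends on the setting. It was 36.4 with TPM plus 1, 70.2 with TPM plus 0.01 and 51.9 in the read-based table. Of 15 further genes known from axon-tract and proliferative microglia of the young brain, 9 were detected in both libraries, led by genes that other brain cells also make: Apoe (1130 and 1123), Fabp5 (152.1 and 144.3), Ctsb (131.9 and 144.4) and Ctsd (118.4 and 128.9). Of the rest, 5 were under a TPM of 1 in both libraries, and 1 of them, Ccl4, had no count in either.

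**Figure D2:**
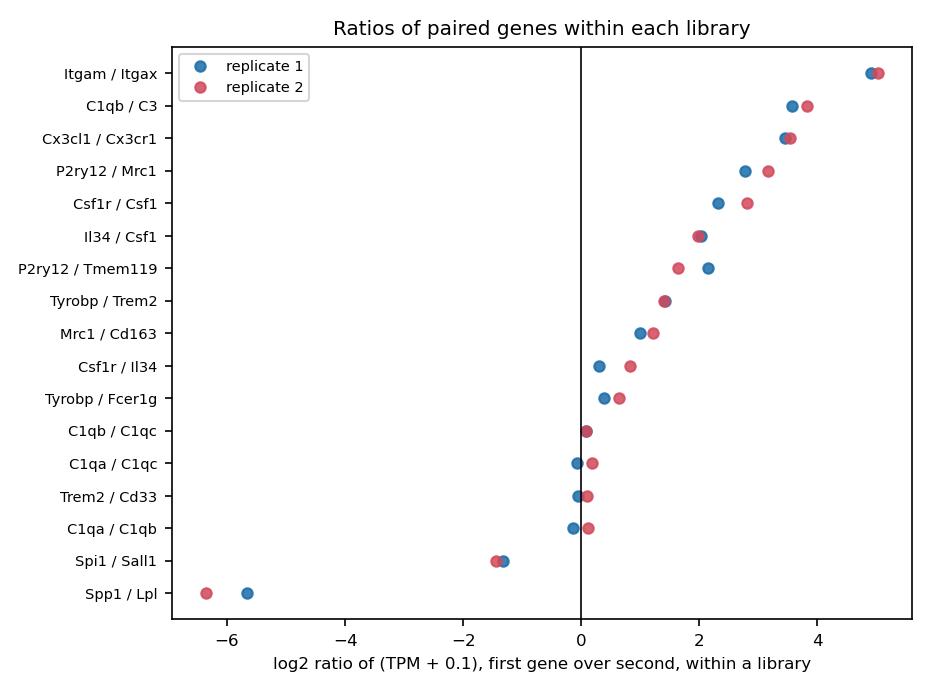
Log2 ratio of TPM plus 0.1 between paired genes within each library, with a point for each library. Of the 17 pairs, 13 met the rule for a call, 11 with the first gene higher and 2 (Spp1 to Lpl and Spi1 to Sall1) with the second higher; C1qa to C1qb, C1qa to C1qc, Trem2 to Cd33 and Csf1r to Il34 did not.

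The libraries were then compared gene by gene. Expected counts were compared with an exact binomial test, two-sided and conditional on each gene's total, given effective library sizes, with Benjamini-Hochberg adjustment over 20544 genes. It compares the reads of 2 libraries and carries no replicate check. A call needed an adjusted p under 0.05 and a log2 ratio of at least 1. None of the 38 members tested was called, beside 2.56% of all genes tested (0.555% higher in replicate 2 and 2.01% higher in replicate 1). By unadjusted p under 0.05, 14 members differed, beside 35.1% of all genes. Adjusted p was under 0.05 for 7 members, beside 26.6% of all genes in either direction. The edgeR exact test with a common dispersion, which allows for spread beyond counting, gave 2 members with an unadjusted p under 0.05 (Tmem119 and Selplg), beside 6.81% of all genes, and none after adjustment, beside 0.886%. Its dispersion came from these same 2 libraries taken as 1 group. Differences between the libraries therefore also raise the spread they are set against, and the test is no independent check.

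All 7 of these members were higher in replicate 2, a direction in which 15.5% of all genes had an adjusted p under 0.05. Tmem119 had 227 and 381 counts, a log2 ratio of 0.71 ± 0.12 (counting SE, here and below), or 1.64-fold, with an adjusted p = 4.2e-08 by the exact binomial test. Selplg had 181 and 286 counts, 0.63 ± 0.14, exact binomial adjusted p = 4.6e-05. In edgeR's exact test their adjusted p was 0.259 and 0.492. A log2 ratio of 0.58 in place of 1 called these 2 members, beside 5.38% of all genes. Cd53, with 112 and 158 counts, had a log2 ratio of 0.46 ± 0.18 (exact binomial adjusted p = 0.042). C1qa was higher by 0.36 ± 0.12 (exact binomial adjusted p = 0.010), Csf1r by 0.30 ± 0.04, Fcrls by 0.26 ± 0.08 and Cx3cl1 by 0.25 ± 0.02. Between the libraries, 35 of the 38 members (92.1%) lay within 1.5-fold, beside 92.3% of the protein-coding genes tested. The 3 beyond it were Tmem119, Selplg and Spp1.

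In the other direction no member passed the adjusted threshold on the scale of trimmed mean (TMM) normalization used for the main test. Spp1 had the largest ratio, -0.82 ± 0.37 (exact binomial adjusted p = 0.107), on few counts. Cd163 (-0.43 ± 0.19, exact binomial adjusted p = 0.097), Fcgr3 (-0.32 ± 0.18) and Mrc1 (-0.22 ± 0.11) were lower in replicate 2 by less. In all, 24 members were higher in replicate 2 and 14 in replicate 1, with a median log2 ratio of 0.10 beside -0.01 over all genes tested and 0.03 over protein-coding genes. With the ERCC spike-ins as the scale, the split was 8 against 30 and the median -0.18, beside -0.26 for protein-coding genes and -0.29 for all genes tested. That scale lowers every log2 ratio by the same amount. Of the 7 members, Tmem119 (0.43), Selplg (0.34), Cd53 (0.18), C1qa (0.08) and Csf1r (0.02) kept their sign on it, and Fcrls (-0.03) and Cx3cl1 (-0.03) did not. On it 16 members passed the adjusted threshold, beside 53.3% of all genes. Only Tmem119 (exact binomial adjusted p = 0.0011) and Selplg (exact binomial adjusted p = 0.027) of the 7 were among them. The other 14 were lower in replicate 2, a direction in which 51.5% of all genes passed on that scale, with Lpl (-0.34), Mertk (-0.39), Mrc1 (-0.50), Cd163 (-0.71) and Csf1 (-0.34) among them. With total counts as the scale no member was called, beside 3.08% of all genes. On that scale Cx3cl1, Csf1r, Tmem119 and Selplg passed the adjusted threshold higher in replicate 2 and Lpl (-0.14), Mrc1 (-0.30) and Cd163 (-0.51) lower, a direction in which 18.4% of all genes passed, while Cd53, C1qa and Fcrls lost the threshold. On the ERCC scale Spp1 was called, at -1.10 with an exact binomial adjusted p = 0.00884, beside 5.87% of all genes called on it. In TPM, 20 members were higher in replicate 2 and 18 in replicate 1, and 6 members differed in sign between TPM and counts: Il34, Laptm5, Sall1, Csf1, Ly86 and Spi1.

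**Figure D3:**
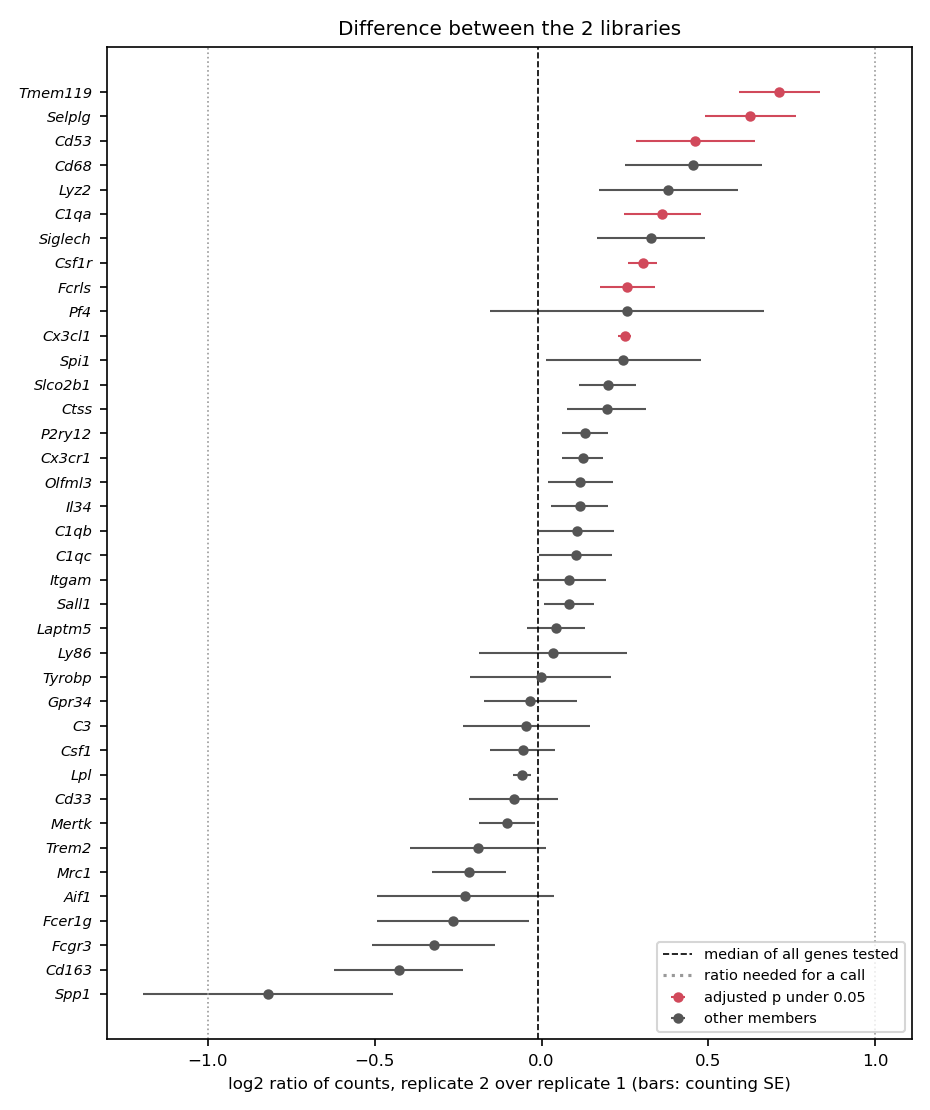
Log2 ratio of counts, replicate 2 over replicate 1, for the 38 members tested, with bars of 1 counting SE, sorted by size. Red points are the 7 members with an adjusted p under 0.05, all to the right of the median of all genes (-0.01), and none reaches the dotted lines at -1 and 1 that a call needs.

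Of a list of 36 other microglial genes, 27 were detected in both libraries and 29 were higher in replicate 2, with a median log2 ratio of 0.19 and none called. Among its highest genes were Sparc (165.6 and 190.7), also a product of astrocytes, the lysosomal protease Lgmn (53.1 and 57.8) and Rgs10 (22.1 and 22.2). Of 19 further genes of TREM2, CSF1 receptor and fractalkine signalling, 16 were detected and none called; 10 of the 18 tested were higher in replicate 2. They were led by genes that most cells express, Ctnnb1 (373.6 and 383.7), Gnai2 (115.2 and 113.2) and Grb2 (70.2 and 66.1), and by Ptprz1 (147.7 and 121.4), an Il34 receptor of glial precursors. Of the 12 further border macrophage markers, 10 were tested, 9 of them higher in replicate 1, with a median log2 ratio of -0.12 and none called. The median of the 36 microglial genes, 0.19, is smaller than the shift that the ERCC scale brings, so its sign turns on that scale.

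All 9 lymphocyte and natural killer cell markers were under a TPM of 1 in both libraries, with Cd8a and Ncr1 at no count. Of 7 antigen presenting cell markers 2 were detected, Zbtb46 (6.42 and 6.43) and Flt3 (2.28 and 1.83), while the class II genes Cd74 (0.85 and 0.88) and H2-Ab1 (0.68 and 0.95) stayed under 1. Neutrophil genes differed between the libraries: S100a9 (6.68 and 1.71), S100a8 (4.37 and 1.82), Ngp (2.59 and 0.20), Camp (1.32 and 0.33) and Ltf (0.87 and 0.23) were all called higher in replicate 1. The 11 monocyte and neutrophil markers summed to 16.7 and 6.04 TPM, none of them without counts in both libraries, and 7 were under 1 in both.

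**Figure D4:**
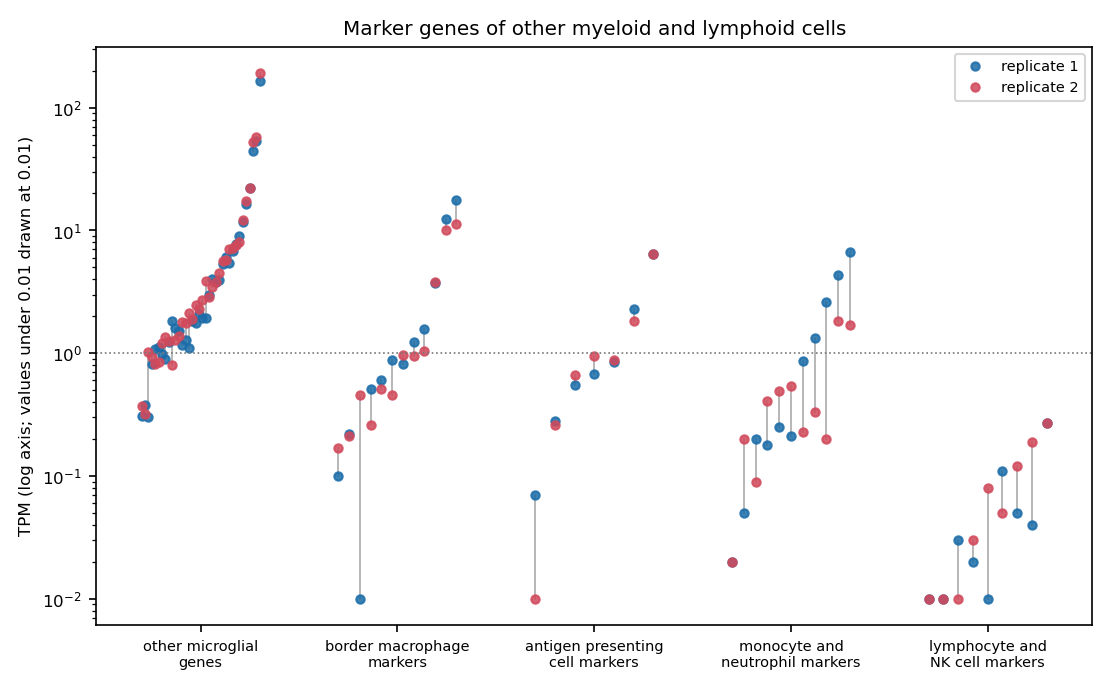
TPM on a log axis of 5 lists of other myeloid and lymphoid genes, each gene a pair of points for the 2 libraries joined by a grey line, ordered within a list by mean TPM. Values under 0.01 are drawn at 0.01. The 5 neutrophil genes called stand well apart between libraries, with S100a9 at 6.68 and 1.71, and all lymphocyte markers lie under the dotted line at 1.

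The tissue around these genes also differed between the pools. All 8 markers of myelinating oligodendrocytes were called higher in replicate 2, with a median log2 ratio of 1.72 and summed TPM of 204.8 and 602.3, none of them at 0. They included Mbp (80.5 and 253.5), Mag (13.5 and 43.9) and Mobp (7.08 and 39.1). All markers of neurons (6), astrocytes (8), oligodendrocyte precursors (6) and endothelium (6) were detected in both libraries with none called. Blood was present in both: of 6 red blood cell markers 5 were detected, and the list summed to 1036 and 925.0 TPM. Against the direction of that sum, Slc4a1, the anion exchanger of red cells, was called higher in replicate 2 at a low level (0.14 and 0.88), and no other marker of the list was called. Of the choroid plexus and meningeal markers, 7 of 7 were detected and none was called, with 5 higher in replicate 2 and 2 in replicate 1. Their sum was 580.5 and 817.9. Whether the myelin and neutrophil differences, or the shifts in the choroid and blood sums, have a part in the member differences was not tested. With 1 pool in each library, the animals, the dissection and the library cannot be told apart.

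The leading transcript, that with the highest TPM, was the same in both libraries for 33 of the 38 members at a mean TPM of 1 or more. Of these, 5 have only 1 annotated transcript, and 32 led with a coding transcript, the exception being Olfml3. The 5 that differed were Aif1, Gpr34, Itgam, Siglech and Spp1. Gpr34 led with Gpr34-201 in replicate 1 (3.36 against 2.10 TPM for Gpr34-202) and with Gpr34-202 in replicate 2 (4.02 against 1.16). The read-based table did not show this swap: Gpr34-201 led in both libraries (8.10 and 5.75 TPM, against 0 and 2.09 for Gpr34-202). Itgam led with Itgam-203 (2.61 TPM) in replicate 1, where Itgam-201 was given 0, and with Itgam-201 (1.53) in replicate 2. The read-based table named the same leaders, but gave Itgam-201 2.04 TPM in replicate 1, beside 2.68 for Itgam-203. These swaps left the gene totals nearly the same, 5.46 and 5.17 for Gpr34 and 3.80 and 3.83 for Itgam. Aif1 led with the retained-intron form Aif1-205 in replicate 2 (2.24 of 4.42 TPM), on 18.4 counts.

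The tables estimated from alignments and from reads disagreed on the form more than on the gene. P2ry12 rested on P2ry12-202 in the first (17.01 and 14.75 TPM), a form the second put at nearly 0 in favour of P2ry12-201 (15.0 and 22.2). Tyrobp likewise led with Tyrobp-201 in the first and Tyrobp-202 in the second. All 4 tables named the same leader for 29 members. At gene level, the read-based TPM was 1.25 to 2.26 times the alignment-based one in the detected members (median 1.56, beside 1.57 for detected protein-coding genes), and across the 39 genes, which are not independent replicates, Spearman's rho between the tables was 0.980. The ligand Csf1 showed the same kind of shift within a stable total: Csf1-201 held 5.00 and 3.64 TPM and Csf1-202 0.16 and 1.05, the latter nearly absent from the read-based table.

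**Figure D5:**
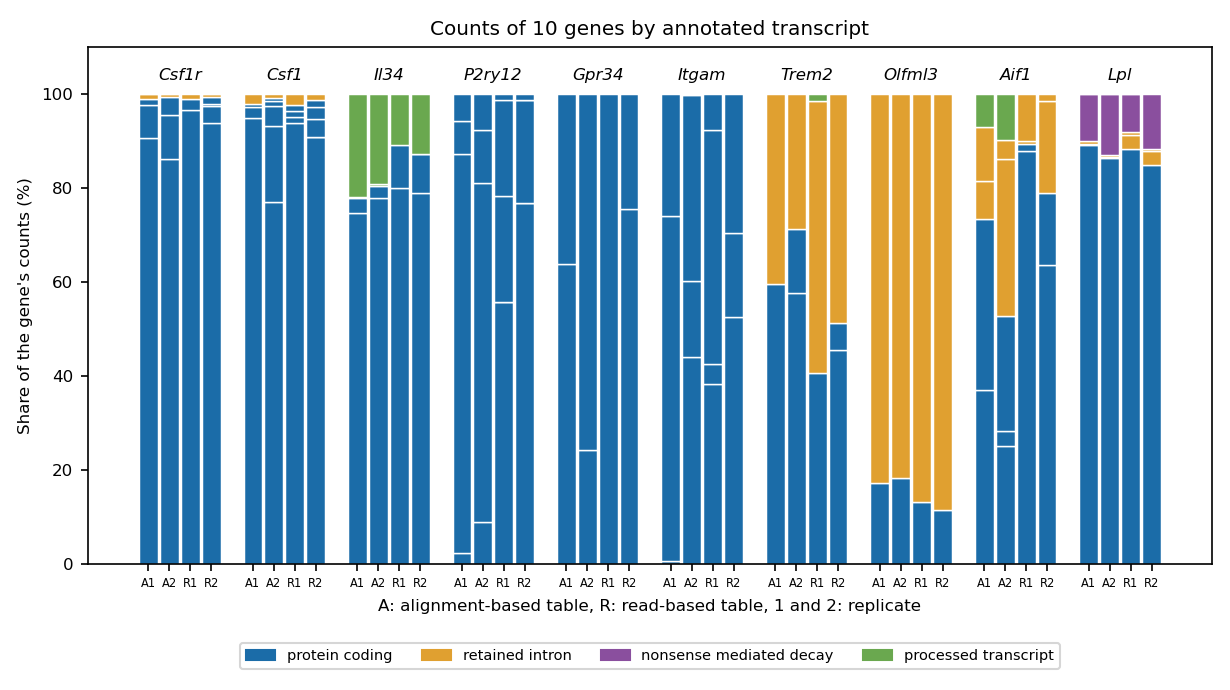
Share of each gene's counts held by its annotated transcripts, for 10 members, in the alignment-based (A) and read-based (R) tables of replicates 1 and 2; each stacked segment is a transcript and its colour the annotated type. Olfml3 is mostly retained intron in all 4 columns, and Gpr34 swaps its 2 coding forms between A1 and A2. Trem2 is 40.4% and 28.7% retained intron in the alignment-based columns and 57.9% and 48.7% in the read-based ones.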

How the data were processed

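Total RNA of 2 pools was sequenced as libraries of 1 group. Per the labels, build mm10 was used, and the deposited description files name annotation M21; the programs, versions and strand setting were not given in the sources used here. Expected counts, as deposited by the authors, are estimates of the reads of each gene or transcript before any normalization. TPM, per the file headers, is length-corrected abundance with the same sum in each library, and FPKM, per the file headers, is per length and depth and was used in 1 alternative. A table estimated from reads and an index gave a further set of estimated counts and TPM per transcript, per the file headers, summed here per gene; 86 genes had no entry in it.

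Replicates 1 and 2 held 29858328 and 32275110 expected counts in the alignment-based tables, 29756524 and 32148302 of them in annotated genes, with 0.341% and 0.393% in ERCC spike-ins. Entries named by a number (26248, with 3 and 4 counts) did not enter any step. Precision at this depth is given as counts beside a level and as counting SE.

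Counts were rounded and tested with scipy 1.17.1 after TMM scaling in edgeR 4.0.16 (R 4.3.3, Python 3.11.15), for genes with 10 or more counts over both libraries, with a pseudocount of 0.5 counts in log2 ratios. DESeq2 1.42.0 size factors, total counts, spike-ins, other count filters, the read-based table, another fold threshold and edgeR's exact test (coefficient of variation 11.1% from 17903 genes in an intercept-only fit) were alternatives. The test was checked on simulated counts that held counting error only, as the test itself assumes. That check cannot tell how often spread beyond counting leads to calls in the real libraries. Whether the libraries are separate animals rests on the labels, which call them biological replicates.

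The genes named were all 39 members and, of each other list, up to 4 genes with the highest mean TPM and every gene called, though some that the rule selects are not reported here; transcripts were named for members whose leading form differed and for a preset list. Zero-count and class II genes, Lyz1, Fcgr2b, Hmgxb3 and the transcripts of Lpl and Olfml3 were named after their values were seen. The members, lists and tests were chosen with earlier results of these data known. Amino acid sequences were not used here.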

Additional observations from a re-analysis of the deposited data

How the results depend on the processing

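The count of members detected in both libraries was 37 as reported and 37 to 38 under every alternative run. Their median TPM was 5.54 as reported, 9.10 in the read-based table and 12.4 when TPM was rescaled to protein-coding genes (the first cause was not tested, the second follows from the smaller total). No member was called under 6 other settings of scaling, filter, table or test. Among all genes, 523 of 20544 were called with DESeq2 size factors and 632 of 20544 with total counts. Without a count filter 506 of 28778 were called, and at 100 or more counts 157 of 14530. The read-based table gave 670 of 23044, and edgeR's exact test 166 genes. With the ERCC scale 1 was called (Spp1), beside 5.87% of all genes, and the median log2 ratio moved to -0.18; a threshold of 0.58 on the log2 ratio called 2 (Tmem119 and Selplg), beside 5.38% of all genes. The members with an adjusted p under 0.05 were 7 as reported, beside 26.6% of all genes. On the ERCC scale they were 16 (2 higher and 14 lower in replicate 2), beside 53.3% of all genes. In the read-based table they were 11, all higher in replicate 2. The share of all genes there was not counted, so these 11 cannot be set against a background. Total counts as the scale gave a median of 0.03. All 4 alternatives for the pairs called 13. The ratio of C1qb to C1qc reversed in the read-based table, to -0.11 on the log2 scale, and the cause was not tested. At a mean TPM of 5 or more the leading transcript was the same for 21 of 22 members, fewer because fewer were counted. Without either replicate the median TPM ranged from 5.46 to 5.63 and the detected count from 37 to 38. Depth limits Itgax, Pf4 and Spp1, which have the fewest counts. No paired analysis was possible because the series holds 1 group.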
